A study of Rattus norvegicus with 6 samples.

Results

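The ERK feedback inhibitors examined here are a set of 10 genes that restrain the RAS-ERK pathway: the MAPK phosphatase genes Dusp1, Dusp4, Dusp5, Dusp6 and Dusp7, the Sprouty genes Spry1, Spry2 and Spry4, and the Spred genes Spred1 and Spred2. Members were taken by gene symbol from the count table of the series, in which 9 of the 10 were read among 18930 rows. Dusp1 was not analysed here. RNA came from NRK-52E, an established rat kidney epithelial cell line labelled as wild type, and each group held 3 samples. One group was kept in streptozotocin (STZ), a glucose-linked alkylating anti-cancer drug, at 10 mM for 24 h, and the other (Control) received vehicle. The study compared them to find which signaling pathways accompany the toxicity of STZ in tubular epithelial cells.

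ERK is the last kinase of a cascade that runs from growth factor receptors through RAS, RAF and MEK. Active ERK raises the transcription of genes that switch the cascade off again, so the pathway carries its own brakes. MAPK phosphatases remove the activating phosphates from ERK itself, whereas Sprouty and Spred proteins act further up, between the receptor and RAF. In the kidney this balance is best known from development, where Spry1 limits the receptor signaling that drives branching of the ureteric bud.

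In STZ-treated cells, 4 of the brakes were clearly higher. Dusp6 rose 1.59-fold, Dusp4 1.58-fold, Dusp5 1.41-fold and Spry4 1.40-fold. Dusp7 rose by 9.48%, but it did not pass the test in 8 of 14 alternative settings. Spred2 fell to 0.792 of its Control level. Spry1, Spry2 and Spred1 did not pass the test. All 9 genes had enough reads to be among the 11870 genes tested. Genes were called by the quasi-likelihood test of edgeR where the p-value, adjusted after Benjamini and Hochberg across every gene tested, was under 0.05. By that rule 5 of the 9 were higher, against 25.9% of all genes. In the other direction 1 of the 9 was lower, against 25.1% of all genes. The median log2 fold change was 0.13 over the 9 genes and -0.01 over all genes tested. The study also required an absolute log2 fold change over 1, which 2.26% of all genes passed upwards and 0 of the 9 genes passed in either direction, with edgeR and also with DESeq2 and limma-voom. At an unadjusted p under 0.05 without a fold threshold, the same 6 genes passed.

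Library totals lay between 10430924 and 15191349 counts and overlapped between the groups, and the common biological coefficient of variation was 3.25%. No pair of libraries in a group looked like 1 library deposited again: the chi-square of any pair within a group, divided by its degrees of freedom, was between 1.8 and 2.48. No source says whether the samples were separate cultures, so p-values measure the spread between these samples only, which may be technical. Of the kidney epithelial markers, Krt8 was abundant at 14300 normalized counts in Control and Tjp1 reached 7616, but Krt18, Cdh2, Pax8 and Cldn4 had fewer than 10 reads in every sample. The proximal tubule genes Lrp2, Slc34a1 and Slc5a2 were likewise under 10 reads in every sample. Aqp1, the 1 proximal tubule marker of 7 with enough reads to be tested, fell from 162.5 to 67.6 normalized counts (log2 fold change -1.25, adjusted p = 9.36e-09 by edgeR), and the summed level of the 5 read went from between 122.3 and 205.3 in Control to between 71.4 and 85.1 in STZ. Of 6 fibroblast markers read, Col1a2, Pdgfra and Lum had fewer than 10 reads in every sample. Most of the change in the rest was in Col3a1, whose mean fell from 670.9 normalized counts in Control to 264.7 in STZ. The summed level of the 6 moved with treatment, from between 1239 and 1382 in Control to between 698.5 and 830.5 in STZ. That of 9 kidney epithelial markers lay between 21260 and 22340 in Control and between 28470 and 28550 in STZ, mostly through Krt8 (19970 in STZ), whereas Cdh1, the epithelial cadherin gene, fell (log2 fold change -0.69, adjusted p = 0.0296 by edgeR). Their part in the results was not tested, and in a bulk sample fewer cells of a type and less RNA per cell cannot be told apart. Of 4 immune cell markers read, Ptprc, Adgre1 and Lyz2 were under 10 reads in every sample. Cd68 had 20, 7 and 23 reads in Control and 29, 21 and 27 in STZ. It did not pass the test (log2 fold change 0.40, adjusted p = 0.279 by edgeR). The 4 endothelial markers, Pecam1, Kdr, Cdh5 and Tek, were under 10 reads in every sample. Among them Kdr had 0, 2 and 1 reads in Control and 6, 9 and 7 in STZ.

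**Figure D1:**
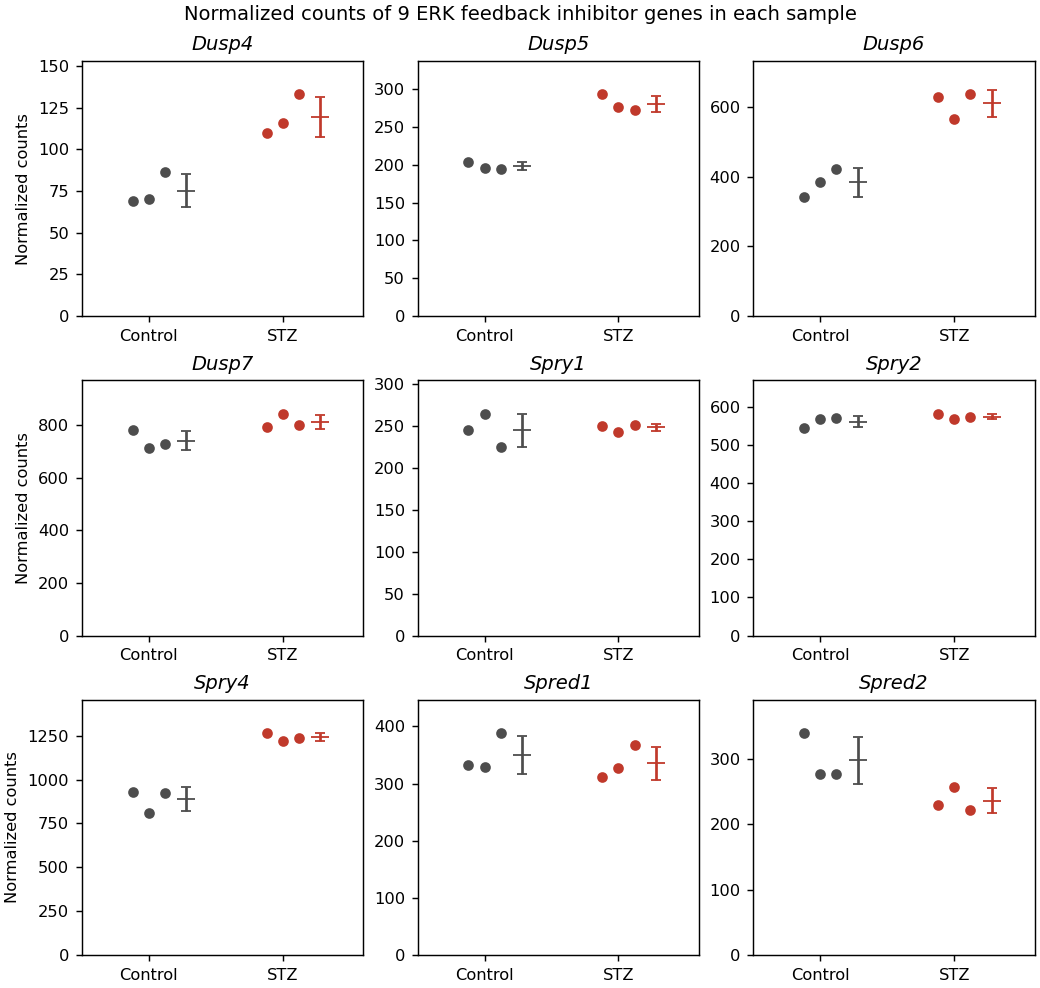
Normalized counts (y axis, from 0) of the 9 genes in each Control and STZ sample, with the mean and SD of 3 samples beside the points. The groups are apart in Dusp4, Dusp5, Dusp6, Spry4 and, narrowly, Dusp7 (higher in STZ) and in Spred2 (lower), and overlap in Spry1, Spry2 and Spred1.

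Dusp4 and Dusp5 encode phosphatases of the nucleus. Dusp5 acts selectively on ERK, and Dusp4 also acts on other MAP kinases. Values are normalized counts, that is, reads scaled to a common library size. Dusp4 had 69.2, 70.2 and 86.4 in the Control samples, numbered 1 to 3, against 109.5, 115.7 and 132.9 in STZ samples 1 to 3. Every STZ sample lay above every Control sample. The means were 75.3 ± 9.64 and 119.4 ± 12.1 (SD, n = 3 each). With SE for the standard error, edgeR estimated a log2 fold change of 0.66 ± 0.14 (SE; adjusted p = 1.25e-04). Dusp4 had the fewest reads of the set, 59 to 160 per library, and the widest interval, from 0.38 to 0.94 at 95% confidence.

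Dusp5 had 204.2, 195.8 and 195.1 normalized counts in the Control samples and 293.1, 275.8 and 272.4 in the STZ samples. The groups were well apart, since the Control SD was 5.05 and the STZ SD 11.1 (n = 3 each). The edgeR estimate of the log2 fold change was 0.50 ± 0.09 (SE; adjusted p = 5.97e-06), with a 95% confidence interval from 0.32 to 0.68. In GRCr8 the span of Dusp5 overlaps that of 1 uncharacterized non-coding transcript. Whether the counting used strand is not given in the sources used here, so the 2 may share reads.

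The Dusp5 promoter is shown because it holds a pair of adjacent CArG boxes, the motif bound by serum response factor, through which ERK signals reach many early genes. A CArG box is a run of A or T letters between CC and GG. The sequence is from RefSeq (GRCr8, chr1:262543524-262543823, plus strand) and runs from 250 bases before the gene's start to 50 after it. Capitals mark both CArG boxes and, downstream of them, a cyclic AMP half-site (TGACG on either strand).
Dusp5: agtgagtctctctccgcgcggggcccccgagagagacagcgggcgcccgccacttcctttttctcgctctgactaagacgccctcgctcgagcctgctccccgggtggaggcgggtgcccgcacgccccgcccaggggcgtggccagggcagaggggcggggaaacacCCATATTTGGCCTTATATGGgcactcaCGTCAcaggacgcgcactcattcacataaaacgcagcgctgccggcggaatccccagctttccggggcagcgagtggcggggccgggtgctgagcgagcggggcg

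The boxes read CCATATTTGG and CCTTATATGG and began 82 and 72 bases upstream of the start. Of 33469 rat promoters of this length, 1.64% held at least 1 CArG box and 7 held at least 2. The cyclic AMP half-site is common, with at least 1 match in 21.2% of promoters. A match is a description of the letters and shows no binding. The motifs were chosen after the member promoters had been seen.

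Dusp6 and Dusp7 encode phosphatases of the cytoplasm that are selective for ERK, and Dusp6 is often read as a record of ERK activity. Dusp6 had 341.5, 386.0 and 423.2 normalized counts in the Control samples, numbered 1 to 3, against 629.7, 565.6 and 636.2 in STZ samples 1 to 3. The lowest STZ sample was above the highest Control sample by more than either group's SD, which was 40.9 in Control and 39.0 in STZ (n = 3 each). The edgeR estimate of the log2 fold change was 0.67 ± 0.07 (SE; adjusted p = 1.01e-10), with a 95% confidence interval from 0.53 to 0.81. It stood at percentile 94.96 of the log2 fold changes of all genes tested, beside Dusp4 at 94.88, Dusp5 at 91.84 and Spry4 at 91.36.

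Dusp7 had more reads than Dusp6 and a much smaller difference. It had 780.3, 713.1 and 727.0 normalized counts in the Control samples and 790.8, 842.4 and 799.0 in the STZ samples. The groups did not overlap, but the lowest STZ sample lay close to the highest Control sample. The edgeR estimate of the log2 fold change was 0.13 ± 0.05 (SE; adjusted p = 0.0436), with a 95% confidence interval from 0.02 to 0.24. Of 14 alternative settings, 8 left Dusp7 past no threshold, with adjusted p between 0.0626 and 0.168 by edgeR or DESeq2. Among these were the fits without Control replicate 2 (log2 fold change 0.10), Control replicate 3 (0.12), STZ replicate 2 (0.11) and STZ replicate 3 (0.14). In GRCr8 its span overlaps Rpl29, a ribosomal protein gene, whose log2 fold change was -0.07.

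The Dusp6 promoter (RefSeq, GRCr8, chr7:35979354-35979653, plus strand) is printed beside that of Dusp5 because it belongs to the gene with the smallest p of the set. It carries no capitals, since none of the motifs searched was in this window. They were the CArG box, the cyclic AMP response element (TGACGTCA) and its half-site, which overlap each other, the ETS site (CCGGAAGT), the AP-1 site (TGANTCA), the p53 half-site and the TATA box (TATAAA), all on both strands. Of all promoters, 1.83% held the cyclic AMP response element, 3.81% the ETS site, 7.33% the AP-1 site, 7.98% the p53 half-site and 14.2% the TATA box.
Dusp6: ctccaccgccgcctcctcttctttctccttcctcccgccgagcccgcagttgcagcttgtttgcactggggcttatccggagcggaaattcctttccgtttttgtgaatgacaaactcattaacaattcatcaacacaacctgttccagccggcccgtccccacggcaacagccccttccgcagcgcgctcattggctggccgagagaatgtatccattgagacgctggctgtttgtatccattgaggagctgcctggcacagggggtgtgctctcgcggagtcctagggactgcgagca

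**Figure D2:**
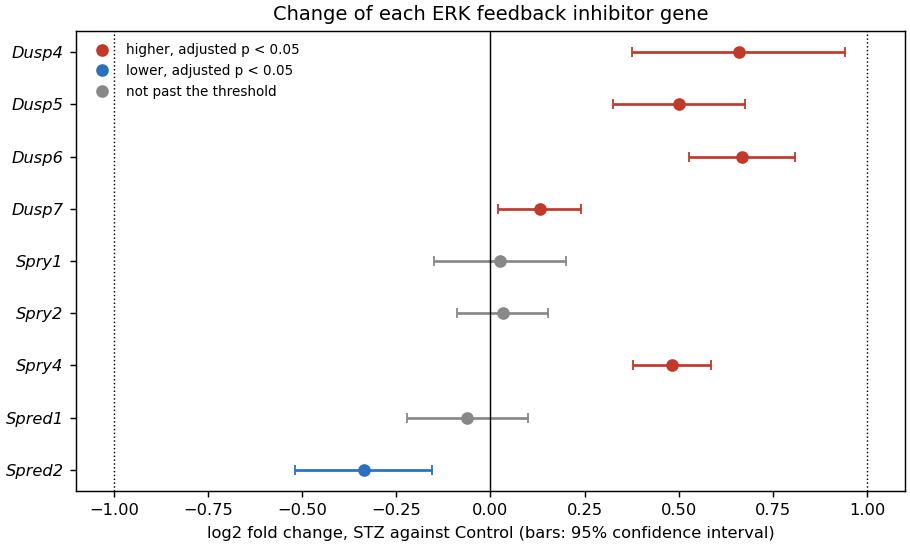
Log2 fold change of each gene, STZ against Control (x axis), with its 95% confidence interval from edgeR's quasi-likelihood fit. Dotted lines mark the study's fold-change threshold of 1 in both directions, and each interval lies inside them.

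The Sprouty genes encode adaptors that block the path from receptor tyrosine kinases to RAS and RAF. Spry4 was the member of the family that rose. It had 931.7, 811.6 and 922.1 normalized counts in the Control samples, numbered 1 to 3, against 1265, 1219 and 1240 in STZ samples 1 to 3. The STZ samples were close to each other, with an SD of 23.1 against 66.8 in Control (n = 3 each), and all lay above the Control samples. The edgeR estimate of the log2 fold change was 0.48 ± 0.05 (SE; adjusted p = 1.51e-10), with a 95% confidence interval from 0.38 to 0.59.

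Spry1 and Spry2 lay near their Control levels. Spry1 had 245.2, 264.9 and 225.2 normalized counts in Control and 250.6, 243.3 and 251.6 in STZ. The STZ samples fell within the Control range, and the log2 fold change was 0.03 (95% confidence interval from -0.15 to 0.20, adjusted p = 0.826 by the same edgeR test). Spry2, which binds the ubiquitin ligase Cbl, had 545.6, 569.3 and 571.7 in Control and 582.7, 569.9 and 573.1 in STZ. Its groups overlapped, and the log2 fold change was 0.03 (95% confidence interval from -0.09 to 0.15, adjusted p = 0.679 by the same edgeR test). With these intervals, changes of the size of that of Spry4 were outside the range for both genes.

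The Spry4 promoter is shown for a repeated unit that was noticed when the member sequences were read. It is from RefSeq (GRCr8, chr18:30702497-30702796, minus strand), and capitals mark each CCATTCAT.
Spry4: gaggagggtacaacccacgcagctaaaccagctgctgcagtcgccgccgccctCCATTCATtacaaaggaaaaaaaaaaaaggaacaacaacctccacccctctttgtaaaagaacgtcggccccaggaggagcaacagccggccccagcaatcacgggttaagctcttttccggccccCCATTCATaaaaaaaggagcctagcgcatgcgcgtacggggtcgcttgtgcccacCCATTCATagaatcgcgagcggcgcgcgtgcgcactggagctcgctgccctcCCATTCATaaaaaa

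The unit occurs 4 times in the Spry4 window. At least 1 copy, on either strand, was in 1.02% of the 33469 promoters, and 1 promoter, that of Spry4, had at least 4. None of the other motifs named above was found in it.

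The Spred proteins bring neurofibromin, a RAS-inactivating protein, to the membrane. Spred2 had 339.1, 277.3 and 276.6 normalized counts in the Control samples, numbered 1 to 3, against 229.8, 257.4 and 220.9 in STZ samples 1 to 3. All STZ samples were below all Control samples, and Control replicate 1 was the highest of the 6. The edgeR estimate of the log2 fold change was -0.34 ± 0.09 (SE; adjusted p = 0.00167), with a 95% confidence interval from -0.52 to -0.16. With each sample left out in turn it lay between -0.40 and -0.24. Spred2 was the 1 gene of the 9 called lower.

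Spred1 had 332.1, 328.2 and 388.3 normalized counts in Control and 311.2, 327.7 and 367.9 in STZ. In both groups replicate 3 was the highest, and the groups overlapped. The log2 fold change was -0.06 (95% confidence interval from -0.22 to 0.10, adjusted p = 0.551 by the same edgeR test). The Spred1 span overlaps 1 pseudogene in GRCr8.

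The Spred2 promoter (RefSeq, GRCr8, chr14:98350327-98350626, plus strand) is shown as that of the 1 gene that fell. Capitals mark a cyclic AMP half-site, which began 51 bases upstream of the start. In Dusp5 the same half-site lay 55 bases upstream. In 1 promoter of Spry2, a gene that did not pass the test, it lay 219 bases upstream, and the other Spry2 promoter held none. The promoter of Dusp1, whose reads were not analysed here, held 3 half-sites, beginning 172, 124 and 121 bases upstream. Those at 124 and 121 overlap a cyclic AMP response element.
Spred2: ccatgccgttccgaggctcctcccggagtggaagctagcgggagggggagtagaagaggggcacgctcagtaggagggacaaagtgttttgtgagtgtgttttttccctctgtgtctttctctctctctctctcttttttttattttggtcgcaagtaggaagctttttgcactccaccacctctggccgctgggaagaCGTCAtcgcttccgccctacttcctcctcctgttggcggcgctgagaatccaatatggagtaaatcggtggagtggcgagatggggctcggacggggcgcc

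Over the 9 genes tested, all STZ samples lay above all Control samples in 5, against 28.6% of all genes tested. The plot of all genes by level shows where the 9 genes stand.

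**Figure D3:**
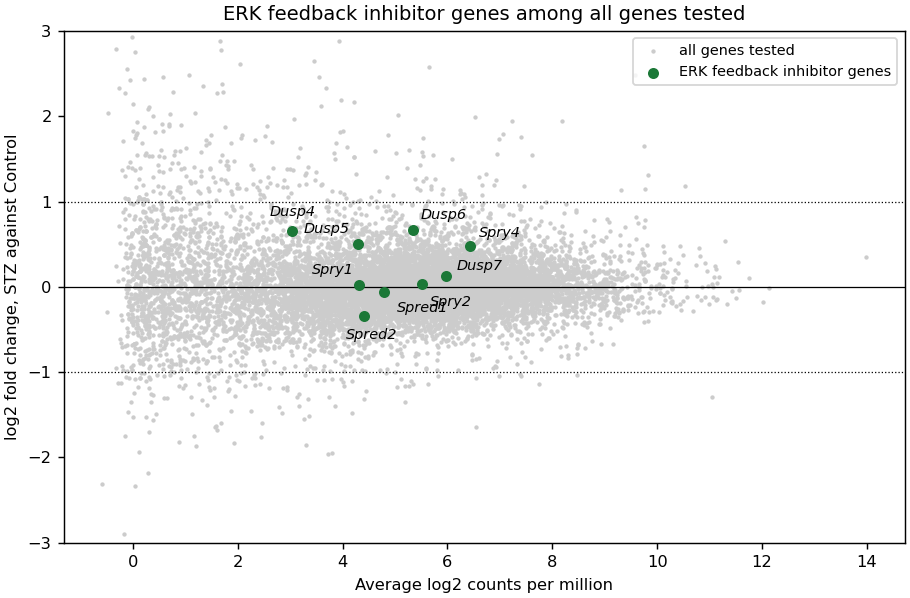
Log2 fold change (y axis, STZ against Control) against average log2 CPM, counts scaled to a common total (x axis) for all 11870 genes tested, in grey, and the 9 ERK feedback inhibitor genes, in green. Dotted lines mark the fold-change threshold of 1, and 10 genes lie outside the range drawn. Dusp4, Dusp5, Dusp6 and Spry4 sit in the upper part of the cloud, under the threshold.

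Related genes were next compared within each library, as the log2 ratio of their reads minus the mean of that ratio in Control. Such a ratio does not depend on how libraries are scaled. It was described without a p-value, because 3 samples against 3 cannot go under an exact two-sided permutation p of 0.1. The ratios use the same reads as the fold changes above, so they restate those differences and are no further support for them. The ratio of Dusp6 to Dusp7 was higher in STZ by 0.54 (SD 0.21 in Control and 0.14 in STZ, n = 3 each). That of Dusp5 to Dusp7 was higher by 0.37 (SD 0.03 in Control and 0.09 in STZ). In both pairs all STZ samples lay above all Control samples.

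The Sprouty family divided in the same way. The ratio of Spry4 to Spry2 was 0.44 to 0.46 in the STZ samples and -0.15 to 0.11 in the Control samples. That of Spry4 to Spry1 was 0.44 to 0.48 in STZ and -0.24 to 0.18 in Control. The groups of both ratios were apart. By contrast, the ratio of Spry2 to Spry1 differed by 0.01 and its groups overlapped. The ratio of Dusp4 to Dusp5 differed by 0.17 and that of Spred1 to Spred2 by 0.27, and in both the groups overlapped.

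**Figure D4:**
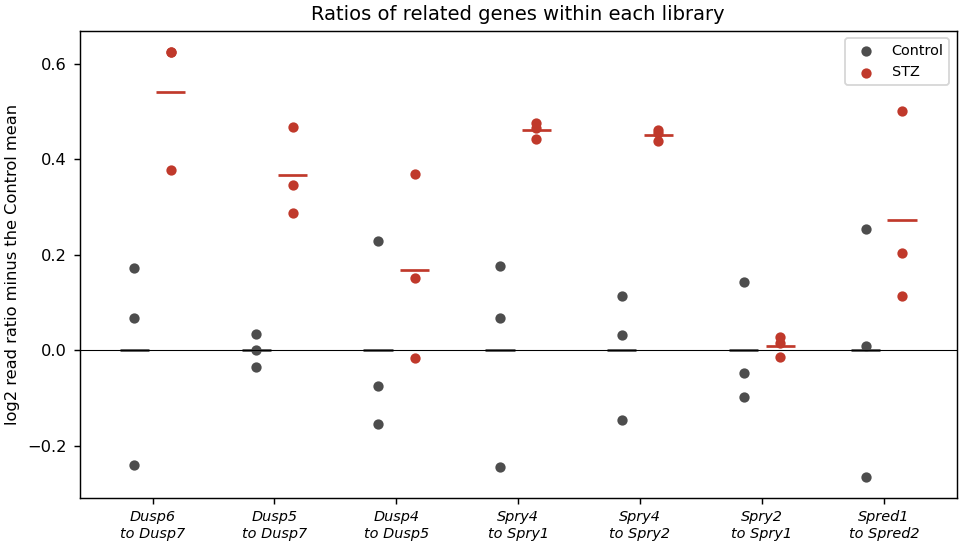
Log2 ratio of the reads of related genes in each library, minus the Control mean of that ratio (y axis); points are the 3 samples of each group, of which 2 STZ points coincide for Dusp6 to Dusp7, and bars their means. Ratios of Dusp6 and Dusp5 to Dusp7, and of Spry4 to Spry1 and to Spry2, were higher in every STZ sample than in any Control sample.

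Other genes of the pathway were taken from lists by role. Of 25 genes of the core cascade, from receptor adaptors to ERK, 23 were tested, with 6 higher and 2 lower at an adjusted p-value under 0.05 by the same edgeR test. The counts lie near or under the shares over all genes, 25.9% higher and 25.1% lower, and say nothing particular of the cascade. Their median log2 fold change was 0.04, and no gene reached a change of 1. The largest rises were those of Hras (0.42), a RAS protein, Shc1 (0.36), an adaptor, and Araf (0.33), a RAF kinase. Mras (-0.33) and the adaptor Gab1 (-0.30) were the 2 that fell. Map2k1 and Map2k2, the MEK genes, had log2 fold changes of 0.04 and -0.06 and did not pass the test.

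Paralogs of the phosphatase, Sprouty and Spred genes were few. Of 7 listed, 4 were tested, and 2 were higher and 0 lower, against 25.9% and 25.1% of all genes. Dusp8, a phosphatase that prefers stress-activated MAP kinases, changed by 0.67 ± 0.11 on the log2 scale (SE; adjusted p = 3.03e-06 by edgeR), about as much as Dusp6. Spred3 rose by 0.25 on the log2 scale, so that Spred3 and Spred2 moved in opposite directions. Dusp10 (-0.06) and Dusp16 (0.13) did not pass the test.

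Among 11 inhibitors that act at receptors, all tested, 6 were higher and 2 lower, against 25.9% and 25.1% of all genes, and the median log2 fold change was 0.44. Ptpre, a tyrosine phosphatase, rose most (2.28) from few reads, 12.5 ± 2.75 normalized counts in Control and 62.0 ± 2.42 in STZ (SD, n = 3 each). It was followed by Ptprj (0.70), a phosphatase of receptor kinases, and Il17rd (0.54), known as Sef, which holds ERK in the cytoplasm. Sh3kbp1 (-0.64) and Cbl (-0.22), both of which take part in removal of receptors from the surface, fell.

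Of 16 genes tested whose transcription is known to follow ERK, 7 were higher and 4 lower, against 25.9% and 25.1% of all genes, with a median log2 fold change of 0.20. Fosl1 (2.46), Epha4 (1.16) and Etv4 (1.06) rose most, whereas Fos (-1.14), Egr1 (-0.99) and Myc (-0.33) fell. Epha4 and Fosl1 rose from few reads, with Control means of 19.1 and 41.3 normalized counts. Etv5, the close relative of Etv4, had a log2 fold change of -0.11 and did not pass the test. Dusp6 and Spry4 were thus higher in the same libraries in which Fos and Egr1 were lower. All STZ samples were taken at 24 h, so the order of these changes in time was not tested. The list of substrates and effectors held 18 genes downstream of or beside ERK, among them other MAP kinases such as Mapk8. Of these, 17 were tested, with 3 higher and 5 lower and a median of -0.04. All genes again stood at 25.9% and 25.1%, so the counts do not set the list apart. Pea15 (0.72), which binds ERK in the cytoplasm, Ets2 (0.69), an ETS factor, and Elk1 (0.27) rose, and Cic (-0.37), a repressor that ERK inactivates, Mapk8 (-0.32) and Rps6ka3 (-0.18) fell.

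**Figure D5:**
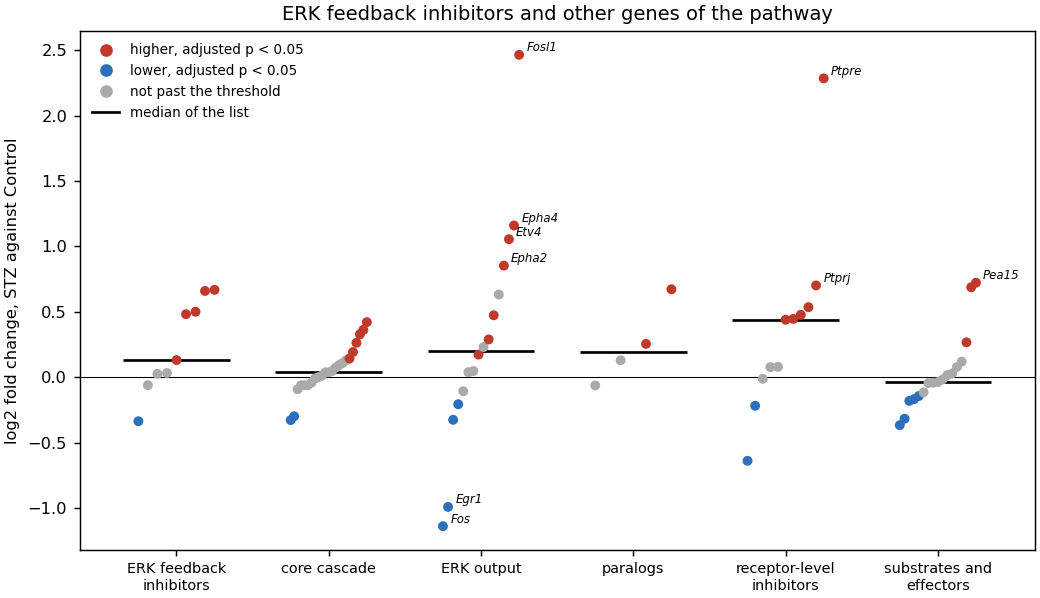
Log2 fold change, STZ against Control (y axis), of each gene tested in the ERK feedback inhibitors and in the 5 lists of other pathway genes (x axis), coloured by its edgeR call, with black bars for the medians. The medians run from -0.04 for substrates and effectors to 0.44 for receptor-level inhibitors, and the feedback inhibitors stand at 0.13.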

How the data were processed

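Total RNA of 3 Control and 3 STZ samples was made into TruSeq stranded mRNA libraries. The authors aligned them to Rnor6 with STAR 2.7.10a and deposited raw counts of reads with a unique position, made by featureCounts. Groups came from the sample titles. From these counts, TMM scaling, the filterByExpr filter and the quasi-likelihood test were run with edgeR 4.0.16 in R 4.3.3 over all genes, with Benjamini-Hochberg adjustment; DESeq2 1.42.0 and limma 3.58.1 (voom) were alternatives. Calls required an adjusted p-value under 0.05. A standard error is the size of the log2 fold change over the root of the F statistic. In simulated counts with changes put into 200 of 11794 genes, the steps called 174 of the 200 and 12 unchanged genes. In the real counts 6046 of 11870 genes were called, so the simulation does not cover changes this widespread. The members and lists were chosen with earlier results of these data known. All members were named and, in each list, up to 3 called genes with the largest changes in each direction; other genes named were chosen after their values were seen. Promoters came from RefSeq (GRCr8), which held those of 9 of the 10 members; its coordinates are not those of Rnor6. Total counts limit precision for genes with few reads. Other scalings, filters and tests, a replicate block and leaving out each sample were tried. Some single genes that enter the counts and sums are not reported here by name.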

Additional observations from a re-analysis of the deposited data

How the results depend on the processing

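Across 14 alternatives, the calls of Dusp4, Dusp5, Dusp6, Spry4 and Spred2 kept their direction and stayed past the threshold in all 70 refits, while Dusp7 lost its call in 8 of 14. So 4 or 5 members were higher and 1 lower, and 0 passed both thresholds under every alternative, glmTreat included. Members that did not pass the test changed sign in 4 refits: with library size only, Spry1 was -0.0074 and Spry2 -0.0013, and with each sample left out Spry1 ranged from -0.0371 to 0.0838 and Spred1 from -0.137 to 0.0273, the sign changing without Control replicate 3. Of 210 counts over the lists, 207 stayed within 1.5 times the reported value. Inhibitors at receptors that were lower numbered 1 without Control replicate 3 or STZ replicate 2, and with at least 10 counts in every sample Ptpre was not tested, so 0 of them passed both thresholds. Library size only moved the median of all genes by -0.0335 (log2). Same-numbered samples had correlations of 0.0375, -0.0169 and 0.123 between their deviations from group means. Of 3 Control samples, 1 correlated best with its own number. With so few samples, these values cannot settle whether same-numbered samples shared a batch. No link other than the number is given in the sources used here. With the replicate block, 5 members were higher and 1 lower, and 6199 genes were called against 6046.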

Other observations

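Summed over the 9 genes, the feedback inhibitors amounted to 304.4, 290.5 and 306.5 CPM in the Control samples, numbered 1 to 3, against 358.5, 354.8 and 361.0 CPM in STZ samples 1 to 3. The sum is given as a description, and the difference in it comes mostly from Spry4 and Dusp6.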
